A study of Mus musculus with 4 samples.

Results

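The 8 genes described here encode chains of the antibody molecule and of the receptor that carries it on the B cell surface: Ighm and Igha (the constant regions of the IgM and IgA heavy chains), Jchain (the joining chain), Vpreb1, Vpreb3 and Igll1 (the surrogate light chain family), and Cd79a and Cd79b (the signalling partners of membrane immunoglobulin). They were taken by symbol from the 19938 genes that the platform's gene table names alone on a transcript cluster, the set of probes that the array summarises as 1 value. The 8 genes had 15 clusters, of which 11 named a single gene and 4, all of Igha, were shared with other immunoglobulin genes. The genes were chosen by name and not by their values, although earlier results on these arrays were known.

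The cells were CH12.F3, a mouse B lymphoma line that carries IgM and can switch to IgA in culture. Both groups, controls included, had been kept in medium with 6% serum and then stimulated for 24 hours to switch to IgA, by IL-4 at 5 ng/ml, TGF-beta at 0.2 ng/ml and CD40 ligand at 25% of the volume. Control cells and Mbd4 KO cells had 2 arrays each, the latter from cells without Mbd4, a glycosylase that excises thymine or uracil from mispairs with guanine. The submitters call the samples of a group independent, but not whether they were separate cultures or knockout clones, so the p-values rest on the spread of these arrays alone, and that spread may be technical. No array of unactivated cells was analysed here.

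In a mature B cell, heavy and light chains form the antigen-binding receptor, and the heterodimer of CD79A and CD79B carries its signal into the cell. Before a light chain has been made, VPREB1 and the lambda5 protein encoded by Igll1 take its place in the pre-B cell receptor, and VPREB3 binds newly made mu heavy chain inside early B cells. In secreting cells the joining chain links IgM into pentamers and IgA into dimers, the forms that epithelia carry to mucosal surfaces. Class switch recombination replaces the mu by the alpha constant region in the heavy chain gene itself.

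Mbd4 was read at 8.74 and 8.77 (log2) on the control arrays and at 6.47 and 6.49 on the Mbd4 KO arrays, 4.86-fold lower (limma adjusted p = 0.0002), so the arrays ranked as labelled. Of the B cell markers, 5 of 5 measured lay above the median level of all tested clusters (7.20, log2), and their median was 11.02 to 11.05 in control and 10.92 to 10.94 in Mbd4 KO arrays. The T cell list had 0 of 5 measured markers above that median (list medians of 6.41 to 6.62 and 6.49 to 6.57), and the fibroblast list had 2 of 5, Col1a1 and Col1a2 (7.15 to 7.23 and 6.88 to 7.05). Macrophage markers above it were 2 of 5, Csf1r and Cd68, with list medians of 7.39 to 7.42 in control and 6.58 to 6.67 in Mbd4 KO arrays. These medians are the values of Csf1r in control and of Adgre1 in Mbd4 KO arrays, so they do not show a fall of the whole list. In that list Adgre1, the F4/80 antigen gene, was the 1 gene called, lower by 1.06 (log2), while Csf1r (-0.07), Cd68 (-0.25), Cd14 (0.09) and Lyz2 (0.24) did not pass and lay on both sides of 0. The part of such cells in the results below was not tested. Values do not reach 0 on this scale, whose lowest value was 2.69.

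Over all clusters with 1 gene symbol, limma called 302 of 21789 at an adjusted p under 0.05 (Benjamini-Hochberg), which is 1.39%. Of these, 94 were higher in Mbd4 KO cells (0.431%) and 208 lower (0.955%). Among the 11 clusters of the antibody and receptor genes, 1 was called higher, Jchain, and 1 lower, Vpreb3. The remaining 9 did not pass. The groups did not overlap in 9 of the 11 clusters, 6 with Mbd4 KO higher and 3 with it lower, against 45.0% of all tested clusters. The median difference over the 11 clusters was 0.19 (log2), beside 0.021 over all tested clusters. Of the 11, 6 were dim, that is under the median level of all tested clusters, with a median difference of 0.26, and the 5 brighter ones had a median of -0.08.

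**Figure D1:**
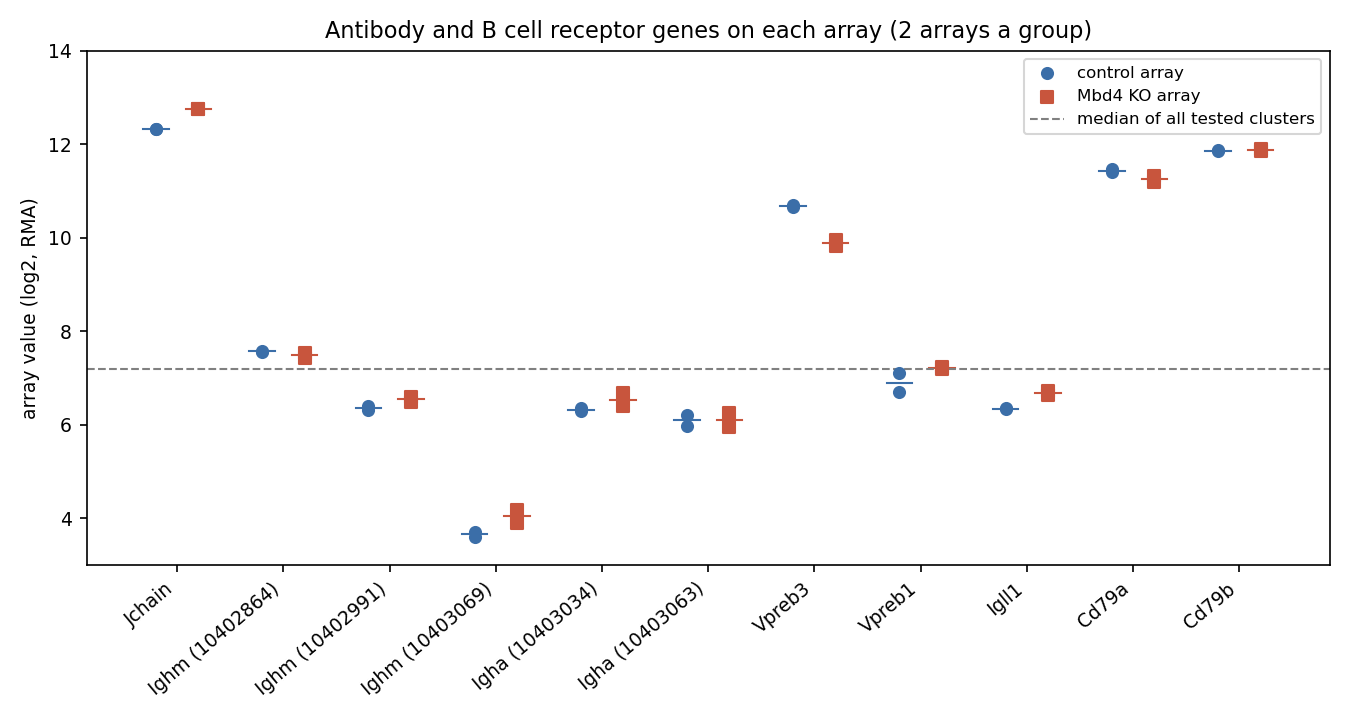
Array values (log2, RMA) of the 11 clusters that name a single gene, with 1 point per array, 2 control arrays (circles) and 2 Mbd4 KO arrays (squares), short lines at the group means and a dashed line at the median of all tested clusters (7.20). Jchain lies near 12.33 in control and 12.76 in Mbd4 KO cells and Vpreb3 between 10.65 and 10.69 in control and between 9.82 and 9.94 in Mbd4 KO cells, and some points of a group cover each other.

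Jchain, whose product joins IgM and IgA units into polymers, was read at 12.33 on both control arrays and at 12.76 on both Mbd4 KO arrays (log2). Its values were nearly equal within a group, and the groups did not overlap. Jchain rose by 0.43 ± 0.0649 in Mbd4 KO cells (log2, limma SE, n = 2 arrays each), 1.35-fold with a 95% interval of 1.21 to 1.51, with a limma adjusted p of 0.045. Of all tested clusters 98.7% had a lower mean level than Jchain, and 0.693% had a larger rise. By size it was 93rd of the 94 clusters called higher, so the call sits at the lower edge of what this design could call. With any 1 array left out the difference stayed between 0.43 and 0.44, but the adjusted p was 0.21 to 0.228 and the call was lost. It was also lost in a fit over all 35556 clusters of the table (adjusted p = 0.189) and without the genes of chromosome 16 (0.0507). In an array of mixed RNA, more cells that express a gene and more of its RNA per cell cannot be told apart.

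Vpreb3, of the surrogate light chain family, was read at 10.69 and 10.65 on the control arrays and at 9.82 and 9.94 on the Mbd4 KO arrays (log2). Both Mbd4 KO arrays lay clearly below both control arrays, with group SDs of 0.0308 and 0.0841. In log2 units Vpreb3 fell by 0.79 (SE 0.0745), which is 1.73-fold lower (95% interval 1.53 to 1.96; limma adjusted p = 0.0101). Of all tested clusters 0.321% had a lower difference, and by size it was 70th of the 208 clusters called lower. With any 1 array left out the difference lay between -0.85 and -0.73, and the adjusted p between 0.0584 and 0.0867, so the call was lost in each such fit. Over all clusters of the table the adjusted p was 0.121. With an intensity trend in the prior the limma adjusted p was 1.31e-05, and without the dimmest 30% of clusters 0.00294. The 20 tested genes that flank Vpreb3 in gene order on chromosome 10, equally many on each side, had a median difference of 0.00. Their range was -0.61 to 0.13, and 1 of them was called, Gstt4, which was lower.

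The sequences upstream of these 2 called genes are shown because they are the places where transcription factors of the B lineage would act, and because the genes differed in opposite directions. They are the 250 bases before the annotated start, read 5′ to 3′ on the gene's strand, from the RefSeq annotation of GRCm38.p6. Jchain is at chr5:88527898-88528147 on the minus strand and Vpreb3 at chr10:75948050-75948299 on the plus strand, the latter inside the span of a longer annotated model of the same gene. Capitals mark matches to any of 4 motifs, searched on both strands and allowed to overlap: the octamer ATGCAAAT of immunoglobulin promoters, the E-boxes CAGGTG and CAGCTG, and the ETS core GGAAGT.
Jchain: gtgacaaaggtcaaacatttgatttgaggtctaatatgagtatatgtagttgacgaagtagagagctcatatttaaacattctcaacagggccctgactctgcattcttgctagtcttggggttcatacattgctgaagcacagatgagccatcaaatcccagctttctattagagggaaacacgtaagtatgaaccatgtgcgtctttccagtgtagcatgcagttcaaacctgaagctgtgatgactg
Vpreb3: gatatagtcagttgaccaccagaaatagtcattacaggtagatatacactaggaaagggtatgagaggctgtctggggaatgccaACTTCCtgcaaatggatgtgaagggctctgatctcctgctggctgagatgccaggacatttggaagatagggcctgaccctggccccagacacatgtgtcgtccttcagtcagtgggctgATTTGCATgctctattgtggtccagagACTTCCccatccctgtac

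The Vpreb3 window held an octamer, read as ATTTGCAT on this strand, from 45 to 38 bases before the start, and 2 matches to the ETS core. Among 32851 windows of this length in the RefSeq promoter table, 1.6% held the octamer and 19.7% the ETS core. The Jchain window held no match to any of the 4 motifs, which says only that these letters are absent there. The octamer is bound by OCT1 and OCT2 with the coactivator encoded by Pou2af1, and the Pou2af1 cluster differed by -0.04 (log2; limma adjusted p = 0.862). Values for OCT1 and OCT2 themselves are not given here. Whether any factor acts on Vpreb3 through these motifs was not tested.

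Vpreb1 and Igll1, the classical surrogate light chain pair, are neighbours on chromosome 16 and had values above those of control cells in both Mbd4 KO arrays, without passing the test. Igll1 was read at 6.35 and 6.33 on the control arrays and at 6.72 and 6.64 on the Mbd4 KO arrays (log2). The groups did not overlap, and the difference was 0.34 ± 0.0691 (log2, SE; 95% interval 0.17 to 0.50; limma adjusted p = 0.101). Removal of the dimmest 30% of clusters gave the same difference an SE of 0.0634 and a limma adjusted p of 0.041. That removal changes both the number of tests and the prior that limma fits. These intervals are for 1 cluster and are not adjusted for the number of clusters tested.

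Vpreb1 was read at 7.10 and 6.70 on the control arrays and at 7.23 and 7.19 on the Mbd4 KO arrays. The control arrays differed from each other by more than the nearer of them differed from the Mbd4 KO arrays. The difference was 0.31 ± 0.133 (log2, SE; 95% interval -0.01 to 0.64; limma adjusted p = 0.383). It was between 0.11 and 0.51 with any 1 array left out, so its size rests on which control array is used. The log2 ratio of the Vpreb1 to the Igll1 value changed by -0.02 between the groups (exact permutation p = 1.0, two-sided; 1.0 adjusted over 2 such ratios). The smallest p that 2 arrays against 2 can give is 0.333, so this test could not have shown a change. The ratio was 0.75 and 0.36 on the control arrays. The clusters of both genes lay under the median level, with 48.3% and 39.7% of tested clusters below them.

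The third gene of the set in mice, Vpreb2, is a near copy of Vpreb1 on the same chromosome, and its cluster was read at 8.48 and 8.37 in control and at 8.61 and 8.44 in Mbd4 KO cells. The groups overlapped, and the difference was 0.10 ± 0.0887 (log2, SE; limma adjusted p = 0.692). The sequences before the starts of Vpreb1 and Vpreb2 were 98.1% identical over the 106 bases where their windows could be laid over each other, so probes of one may read the other where such identity extends into the transcripts, which was not tested.

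The sequences upstream of the neighbouring pair are shown in the same way, since the 2 genes gave the same direction. Igll1 is at chr16:16863986-16864235 and Vpreb1 at chr16:16869256-16869505, both on the minus strand of GRCm38.p6 (RefSeq), with the same 4 motifs in capitals.
Igll1: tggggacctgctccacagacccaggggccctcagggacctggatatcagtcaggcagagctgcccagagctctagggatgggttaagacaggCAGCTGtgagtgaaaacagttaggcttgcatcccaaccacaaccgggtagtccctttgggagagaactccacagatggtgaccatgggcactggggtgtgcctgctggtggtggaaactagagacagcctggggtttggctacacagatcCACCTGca
Vpreb1: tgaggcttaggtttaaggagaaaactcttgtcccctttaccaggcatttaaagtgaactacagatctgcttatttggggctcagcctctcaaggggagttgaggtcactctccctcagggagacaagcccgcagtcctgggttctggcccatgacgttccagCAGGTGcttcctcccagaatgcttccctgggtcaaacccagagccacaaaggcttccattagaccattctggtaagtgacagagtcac

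Igll1 had an E-box CAGGTG, read as CACCTG, from 8 to 3 bases before the start and an E-box CAGCTG from 158 to 153 bases before it. Vpreb1 had an E-box CAGGTG from 88 to 83 bases before its start. E-boxes of these forms are bound by the E2A proteins encoded by Tcf3, and 17.2% and 13% of all windows held CAGGTG and CAGCTG. Tcf3 itself differed by -0.13 (log2; limma adjusted p = 0.523), and Ebf1, another early B cell factor gene, by -0.11 (adjusted p = 0.515). Whether these factors act on Igll1 or Vpreb1 in these cells was not tested.

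On chromosome 16 the 316 tested genes above the median level had a median difference of -0.28 (log2), and the 332 at or under it, where Igll1 and Vpreb1 fall, a median of 0.01. The 20 tested genes that flank Igll1 in gene order, equally many on each side, had a median of -0.07. Their range was -0.40 to 0.31 with Vpreb1 the highest, and none was called by limma. On the chromosomes of the remaining genes the median of the brighter genes lay between -0.06 (chromosome 12, with Ighm and Igha) and 0.03 (chromosome 7, with Cd79a).

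**Figure D2:**
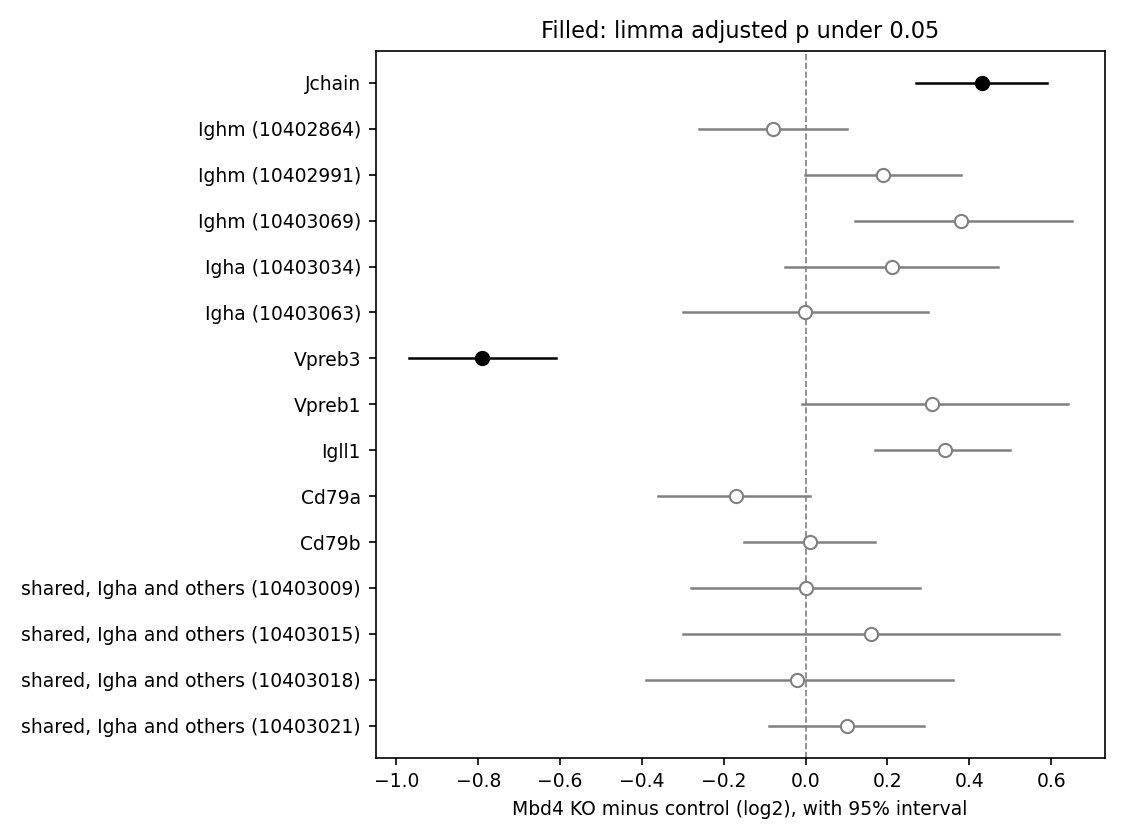
Difference between Mbd4 KO and control cells (log2, x axis) for each of the 15 clusters, with limma's 95% interval as a bar; filled points have an adjusted p under 0.05. Jchain at 0.43 and Vpreb3 at -0.79 are filled, while the 3 Ighm clusters, the 2 Igha clusters and the 4 clusters shared by Igha and other genes are open.

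Ighm, the constant region used before switching, was paired with 3 clusters that did not move as 1. Cluster 10402864 was read at 7.57 and 7.56 on the control arrays and at 7.54 and 7.42 on the Mbd4 KO arrays, a difference of -0.08 ± 0.0735 (log2, SE; 95% interval -0.26 to 0.10; limma adjusted p = 0.678). Cluster 10402991 gave 6.40 and 6.31 against 6.59 and 6.49, a difference of 0.19 ± 0.0769 (adjusted p = 0.364). The groups came apart in both clusters, in opposite directions, by less than the test could call.

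The dimmest, cluster 10403069, gave 3.70 and 3.60 on the control arrays against 4.18 and 3.89 on the Mbd4 KO arrays. Its difference was 0.38 ± 0.109 (log2, SE; 95% interval 0.12 to 0.65; limma adjusted p = 0.207), and 1.41% of tested clusters had a lower mean. The brightest of the 3 Ighm clusters had 53.3% of tested clusters below it. CH12.F3 cells are known for IgM, so the levels of these clusters stand low beside the label of the line, and the sources used here do not say where in the heavy chain gene their probes lie. They are therefore described by cluster, and no direction is given for IgM itself.

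Igha, the constant region gained by switching, had 2 clusters of its own, both under the median level. Cluster 10403034 was read at 6.35 and 6.30 on the control arrays and at 6.68 and 6.39 on the Mbd4 KO arrays, a difference of 0.21 ± 0.105 (log2, SE; 95% interval -0.05 to 0.47; limma adjusted p = 0.451). Cluster 10403063 gave 6.20 and 5.98 against 6.24 and 5.94, and its groups overlapped (-0.000805 ± 0.124; 95% interval -0.30 to 0.30; adjusted p = 0.999). On the fold scale these intervals reach from 0.968 to 1.38 and from 0.81 to 1.23. Neither cluster showed a difference that limma could call, and the intervals allow a change of up to those sizes in either cluster's signal. The sources used here do not say where the probes of these clusters lie either. No level or direction is therefore given for IgA itself.

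The 4 shared clusters pair Igha with Ighg3 or with heavy chain variable genes, so their values name no single gene. Their levels ran from 4.41 to 7.57 (log2, mean over the arrays), and 3 of the 4 lay under the median. In the fit over all clusters their differences ran from -0.02 to 0.16 (limma adjusted p of 0.688 to 1.0). The widest interval was -0.30 to 0.62, for cluster 10403015, which was read at 6.14 and 6.38 in control and at 6.62 and 6.21 in Mbd4 KO cells. Groups overlapped in 3 of these clusters, cluster 10403021 being the exception with 5.14 and 5.10 against 5.26 and 5.18.

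Cd79b, which encodes the beta signalling chain, was read at 11.87 and 11.86 on the control arrays and at 11.86 and 11.89 on the Mbd4 KO arrays (log2). The groups overlapped, and the difference was 0.01 ± 0.0658 (SE; limma adjusted p = 0.963). Its 95% interval, -0.15 to 0.17, corresponds to 0.902-fold to 1.13-fold.

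Cd79a, the gene of the alpha chain, was read at 11.46 and 11.40 on the control arrays and at 11.20 and 11.32 on the Mbd4 KO arrays. Both Mbd4 KO values lay under both control values, but the difference of -0.17 ± 0.0756 (log2, SE; 95% interval -0.36 to 0.01; limma adjusted p = 0.395) did not pass. The log2 ratio of the Cd79a to the Cd79b value within an array was -0.41 and -0.46 in control and -0.66 and -0.58 in Mbd4 KO cells. That ratio changed by -0.18, with an exact two-sided permutation p of 0.333 (0.666 adjusted over the 2 ratios), the smallest that 2 arrays against 2 can give.

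**Figure D3:**
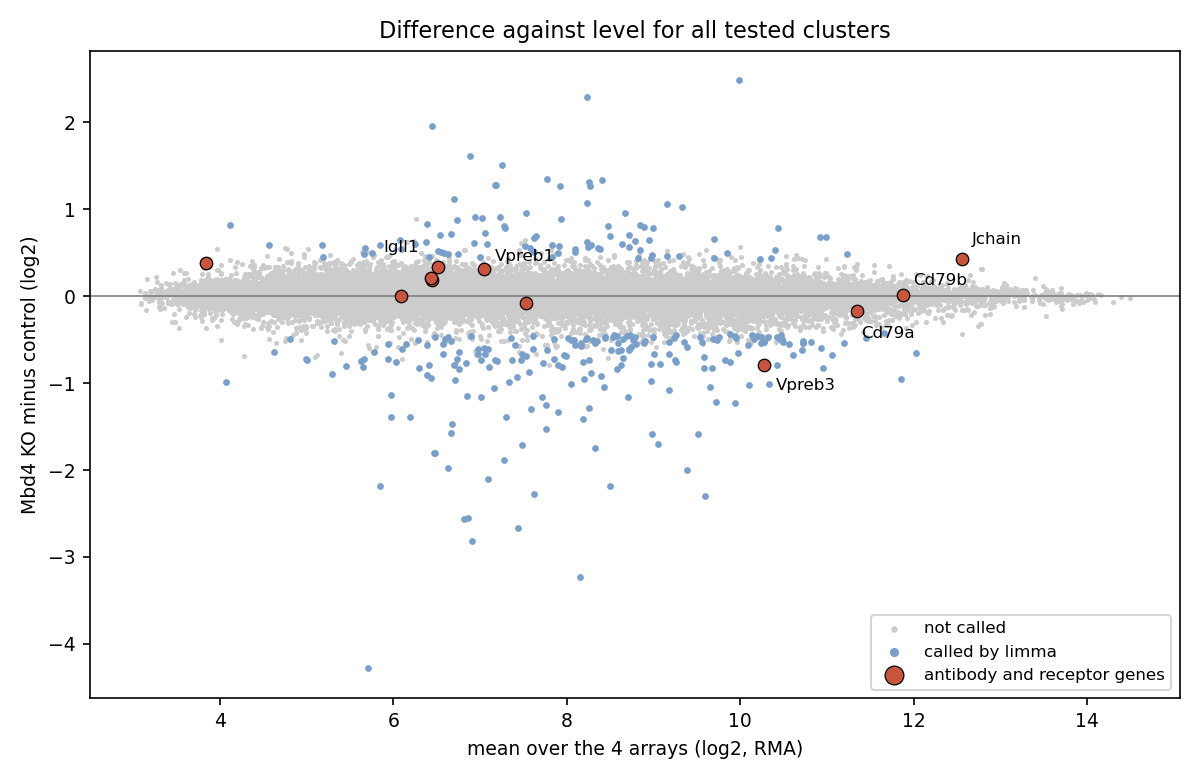
Difference between Mbd4 KO and control cells (log2, y axis) against the mean over the 4 arrays (log2, x axis) for the 21789 tested clusters, grey where limma did not call them and blue where it did; the 11 single-gene clusters of the antibody and receptor genes are red. Jchain at a level of 12.55 and Vpreb3 at 10.27 lie apart from the grey band, whereas Cd79a and Cd79b lie within it.

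The genes whose 4 values most resembled those of the called pair were taken by root mean square distance after each cluster's mean was subtracted. With 4 arrays such likeness mostly restates the size of the difference. Nearest to Vpreb3 were Id3, an inhibitor of E-proteins (distance 0.0112, log2), Ctsw (0.022) and Cox17 (0.0273). Id3 was read at 9.38 and 9.34 in control and at 8.53 and 8.62 in Mbd4 KO cells. Nearest to Jchain were Rbm47, an RNA-binding protein gene also on chromosome 5 (0.0139), Clec2i (0.015) and Axin2, a Wnt pathway gene (0.0172).

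Genes of proximal B cell receptor signalling, the kinases, adaptors and co-receptors that act next to CD79A and CD79B, included 4 called lower and 0 called higher among the 20 measured of 23, against 0.955% called lower and 0.431% higher over all tested clusters. The 4 are Cd72, Syk, Fcgr2b and Dok3. The median over the 20 was -0.06 (log2), 15 lay below 0 and 5 above it, and in 15 the values of control and Mbd4 KO arrays did not overlap, against 45.0% of all tested clusters. The measured genes other than Cr2 lay above the median level. The shares over all clusters take in dim clusters too, so they are not matched for level.

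Syk, the kinase that binds the phosphorylated tails of CD79A and CD79B, was read at 10.92 and 11.03 on the control arrays and at 10.44 and 10.48 on the Mbd4 KO arrays. Both Mbd4 KO arrays were lower, and in log2 units Syk fell by 0.51 (SE 0.0736; limma adjusted p = 0.042). Fcgr2b, the inhibitory Fc receptor gene, was read at 9.19 and 9.12 against 8.62 and 8.66 and fell by 0.51 (SE 0.0694; adjusted p = 0.036).

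Cd72, an inhibitory co-receptor gene, was read at 11.39 and 11.40 against 10.67 and 10.77 and fell by 0.67 (SE 0.0719; limma adjusted p = 0.0155). Dok3, an inhibitory adaptor gene, was read at 9.49 and 9.47 against 9.0 and 9.07 and fell by 0.44 (SE 0.0688; adjusted p = 0.0484). The inhibitory co-receptor gene Cd22 had values on the other side, 10.37 and 10.51 against 10.94 and 10.83, with a difference of 0.44 ± 0.0836 that did not pass (adjusted p = 0.0843). The inhibitory phosphatase genes Ptpn6 (-0.17; adjusted p = 0.358) and Inpp5d (0.00485; adjusted p = 0.986) did not pass. The adaptor gene Blnk (-0.28; adjusted p = 0.15) and the kinase gene Blk (0.31; adjusted p = 0.113) did not pass either. With any 1 array left out 0 genes of this list were called, over all clusters of the table also 0, and with an intensity trend in the prior 8.

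Genes for the assembly, secretion and transport of polymeric antibody had 0 called by limma among 16 measured, against 1.39% of all tested clusters. At that share, 0 calls in 16 say little about these genes. Their median difference was -0.03 (log2) and their range -0.25 to 0.29. The extremes were Ero1b, an oxidase of the endoplasmic reticulum (limma adjusted p = 0.177), and Cd5l, whose product binds IgM (adjusted p = 0.28). The Cd5l cluster was dim, with 15.3% of tested clusters below it. Mzb1, a chaperone cofactor of IgM and J chain assembly, was read at 12.77 and 12.85 in control and at 12.86 and 12.89 in Mbd4 KO cells, a difference of 0.07 ± 0.0696 (adjusted p = 0.74). Prdm1, the regulator of plasma cell differentiation, differed by -0.22 (adjusted p = 0.258) and Xbp1, the secretory regulator, by 0.05 (adjusted p = 0.812). The plasma cell markers gave 0 calls in 5 measured, which says little at a share of 1.39%. Their list medians were 7.53 to 7.63 in control and 7.35 to 7.36 in Mbd4 KO arrays, which are the values of Prdm1 alone. Of the other markers besides Xbp1, Sdc1 differed by 0.17 (limma adjusted p = 0.546), Tnfrsf17 by -0.05 (0.842) and Irf4 by -0.1 (0.639).

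Of the early B cell genes around the surrogate light chain, 1 of 16 was called higher and 1 lower, against 0.431% and 0.955% of all tested clusters, and their median difference was -0.11 (log2). Lef1, a transcription factor gene of the Wnt pathway active in early B cells, was read at 8.14 and 8.16 in control and at 8.89 and 8.78 in Mbd4 KO cells and rose by 0.69 ± 0.0726 (SE; limma adjusted p = 0.0154). Il7r, the interleukin-7 receptor alpha chain gene, was read at 7.38 and 7.40 against 6.70 and 6.74 and fell by 0.67 (SE 0.0667; adjusted p = 0.0132). The Il7r cluster was dim, with a mean of 7.05 over the arrays and 48.2% of tested clusters below it. The groups did not overlap for either gene, and with any 1 array left out neither was called.

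The defining genes of pro-B and pre-B cells were low, with list medians of 5.82 to 5.85 in control and 5.55 to 5.88 in Mbd4 KO arrays and 1 of 5, Cd93, above the median level. Rag1, a subunit of the V(D)J recombinase, was read at 5.85 and 5.82 against 5.88 and 5.55, and Rag2 at 3.95 and 4.18 against 4.06 and 4.40. Neither passed (limma adjusted p = 0.72 and 0.664).

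**Figure D4:**
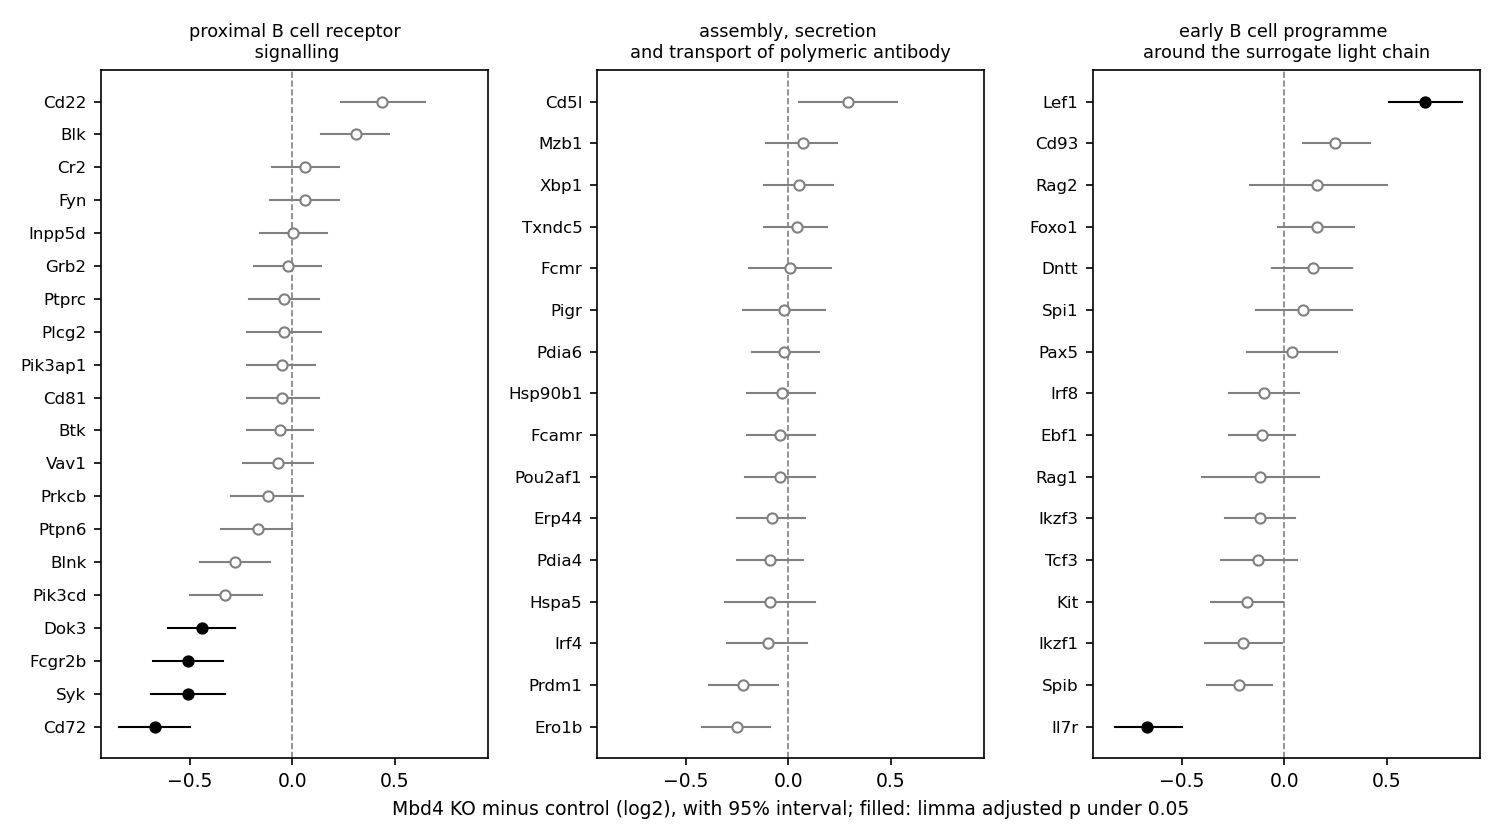
Differences between Mbd4 KO and control cells (log2, x axis) with limma's 95% intervals for the genes of 3 lists, 1 value per gene from its brightest cluster; filled points have an adjusted p under 0.05. Cd72, Syk, Fcgr2b and Dok3 on the left and Lef1 and Il7r on the right are filled, and no gene of the middle list is.

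Other immunoglobulin constant and light chain genes could hardly be read, since 2 of the 12 listed had a cluster of their own, Vpreb2 and Ighg3 (-0.04, log2; limma adjusted p = 0.877). Limma called 0 of these 2, against 1.39% of all tested clusters. The clusters that pair Igkc, the kappa constant region, with variable genes numbered 4, with mean levels from 5.74 to 6.28 and differences from -0.06 to -0.01. The 2 that pair Iglc1, a lambda constant region, with variable genes had means of 9.60 and 9.34 and differences of 0.08 and 0.11. None of these 6 shared clusters passed in the fit over all clusters (limma adjusted p of 0.744 to 0.983).

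**Figure D5:**
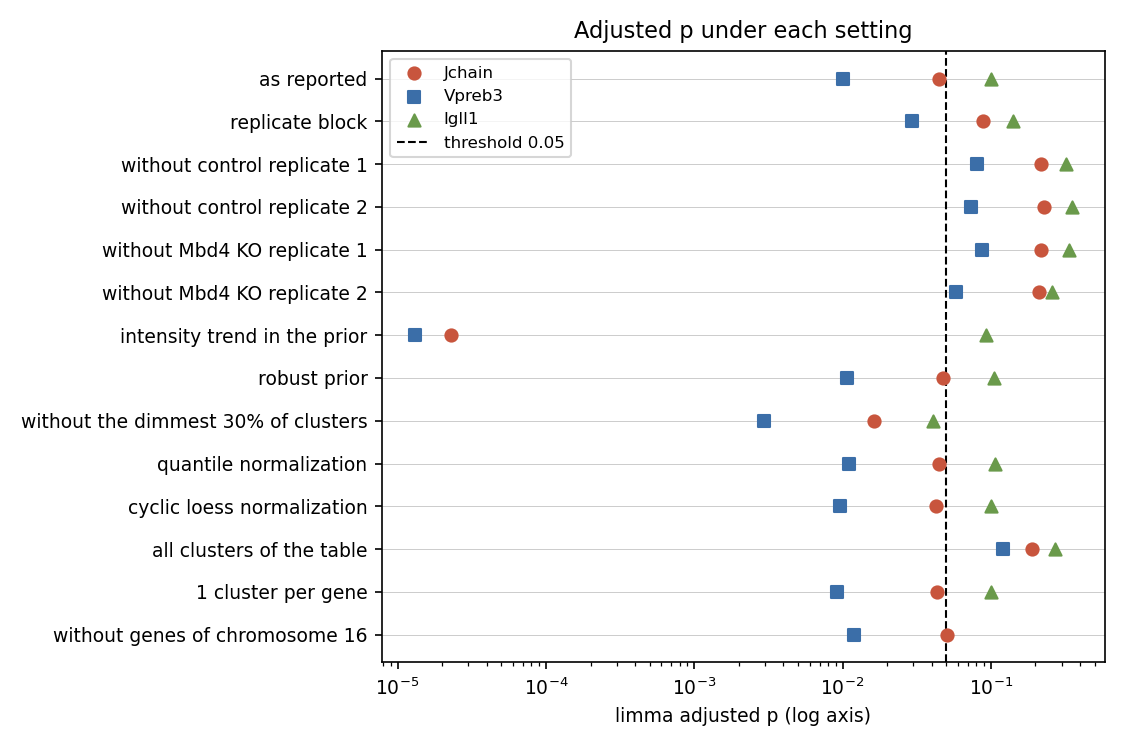
Limma adjusted p (log axis) of Jchain, Vpreb3 and Igll1 as reported and under each of the 13 alternatives, with a dashed line at 0.05. Vpreb3 lies at 0.0101 as reported and right of the line where 1 array is left out (0.0584 to 0.0867) or all clusters are tested (0.121), and Jchain at 0.045 as reported and right of the line in 7 alternatives.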

How the data were processed

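Total RNA was extracted with Trizol and column-purified as polyA RNA, per the labels' protocols, and labelled with the Affymetrix whole-transcript method. The deposited log2 values, 1 per transcript cluster and array, are the authors' RMA output (submitters' processing notes); version and settings: not given in the sources used here. No raw intensity was used, so signal over background is unknown and the number of arrays limits the precision. The platform's gene table named 1 gene on 21789 of 35556 clusters, several on 1621 and none on 12146. Symbols were updated through gene IDs to RefSeq (21698 matched).

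Mbd4 KO was set against control in R 4.3.3 by limma 3.58.1 (lmFit, eBayes; no filter), two-sided, Benjamini-Hochberg over the 21789 clusters, threshold 0.05. Shared clusters took their values from a fit over all 35556. SE and intervals are limma's, with 2 residual and 4 prior degrees of freedom. A cluster is called dim under the median level. The fit was checked on simulated data, where it recovered 14% of changes of 0.5 (log2) and 92% of changes of 1. Changes of the smaller size were thus mostly missed. The genes and lists were chosen with earlier results of these data known. Besides the 8 genes and Mbd4, named genes were set by rule: called genes and the 2 largest differences of each list, and the 3 nearest patterns; Cd22, Ptpn6, Inpp5d, Blnk, Blk, Mzb1, Prdm1, Xbp1, Pou2af1, Tcf3, Ebf1, Rag1, Rag2, Gstt4 and single markers were named outside it. Figures used matplotlib 3.10.9.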

Additional observations from a re-analysis of the deposited data

How the results depend on the processing

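The 11 single-gene clusters were refitted under 13 alternatives, which gave 137 values. Of these, 121 kept their direction and their side of the threshold. Limma called 302 clusters as reported, 159 with the replicate number as a block, 1121 with an intensity trend, 640 without the dimmest 30% and 22 over all clusters of the table. Leaving out 1 array gave 65 to 75. Jchain stayed at 0.43 (log2) but lost its call with the replicate block (adjusted p = 0.0891), over all clusters (0.189) and without the genes of chromosome 16 (0.0507), and was 0.43 to 0.44 with 1 array left out (0.21 to 0.228). Vpreb3 was -0.79 over all clusters (adjusted p = 0.121) and -0.85 to -0.73 with 1 array left out (0.0584 to 0.0867), and kept its call with the replicate block (0.0292). Jchain and Vpreb3 kept their calls with the trend (limma adjusted p = 2.28e-05 and 1.31e-05) and without the dimmest 30% (0.0162 and 0.00294). Igll1 gained a call without the dimmest 30% (0.34; adjusted p = 0.041). Igha cluster 10403063 ran from -0.15 to 0.15 with 1 array left out (0.1 without control array 1, 0.15 without Mbd4 KO array 2), and Cd79b from -0.01 (without Mbd4 KO array 2) to 0.03. Called genes of receptor signalling were 4 as reported and 1 with the replicate block, all of them lower. They were 8 with the trend (6 lower, 2 higher), 7 without the dimmest 30% (5 lower, 2 higher) and 0 over all clusters. With 1 array left out these calls were lost. Early B cell genes were 2 as reported, 4 with the trend, 0 over all clusters and 0 to 0 with 1 array left out. The causes of these shifts were not tested, except that fewer arrays and more or fewer clusters tested change the adjustment and the fitted prior by construction. The labels give arrays of the same number nothing else in common. Their deviations correlated at 0.069 across clusters, which cannot show whether they shared a culture or a batch.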
